A study of Homo sapiens with 16 samples.

Results

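NGFR, the low-affinity neurotrophin receptor also known as p75NTR or CD271, and 4 genes described with it in neural crest stem-like melanoma cells, AQP1, GFRA2, GFRA3 and RXRG, were followed by RNA-Seq in BRAF inhibitor-resistant melanoma lines treated with corin. These 5 of the 34228 genes in the count table were chosen by symbol, with their counts in these 8 libraries already known. Their levels and fold changes are therefore a description and carry no test. The 451Lu-R line is of the MITF-high/AXL-low type and 1205Lu-R of the MITF-low/AXL-high type. Both were made resistant by months in rising PLX4032 (vemurafenib, an inhibitor of mutant BRAF) and were kept in it. For the treatment below, the authors list corin alone and DMSO as arms without PLX4032. A figure legend of theirs takes expression without either drug as the reference. Whether PLX4032 was withdrawn some time before the treatment is not given in the sources used here. Each line received corin, a single molecule that inhibits the histone deacetylases HDAC1/2 and the demethylase LSD1 of the CoREST repressor complex, at 2.5 µM for 24 h, or DMSO, its vehicle. Each of the 4 groups had 2 libraries. The 8 libraries of the series in which PLX4032 was given, alone or with corin, were not analysed here. The sources do not say whether the 2 libraries of a group came from separate cultures, so p-values measure only the spread between these libraries, which may be technical.

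NGFR belongs to the tumor necrosis factor receptor family, binds all neurotrophins and their uncleaved precursors, and acts with the TRK kinases or with sortilin. It marks neural crest stem cells and, in melanoma, dedifferentiated cells that survive BRAF and MEK inhibition. GFRA2 and GFRA3 are co-receptors anchored in the outer membrane that present neurturin and artemin to the kinase RET. AQP1 is a water channel, and RXRG is a retinoid X receptor, which pairs with other nuclear receptors on DNA and has been named as a driver of the neural crest stem-like state under targeted therapy.

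Promoter sequences were available for AQP1, GFRA3 and RXRG in the RefSeq table (GRCh38.p14), and not for NGFR and GFRA2. AQP1 and GFRA3 are shown because they contrast within the set. AQP1 counts were almost all found in corin-treated 1205Lu-R cells, whereas GFRA3 had 0 counts in all 8 libraries. Each sequence holds the 250 bases before the annotated start, 5′ to 3′ on the gene's own strand, at chr7:30911603-30911852 (+) for AQP1 and chr5:138274622-138274871 (−) for GFRA3. Capitals mark matches to any of 7 motifs searched on both strands.
AQP1: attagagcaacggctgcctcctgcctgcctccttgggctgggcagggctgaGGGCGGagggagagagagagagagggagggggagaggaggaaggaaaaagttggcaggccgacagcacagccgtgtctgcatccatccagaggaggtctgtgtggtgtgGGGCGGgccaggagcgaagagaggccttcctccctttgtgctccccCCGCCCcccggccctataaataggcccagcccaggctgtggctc
GFRA3: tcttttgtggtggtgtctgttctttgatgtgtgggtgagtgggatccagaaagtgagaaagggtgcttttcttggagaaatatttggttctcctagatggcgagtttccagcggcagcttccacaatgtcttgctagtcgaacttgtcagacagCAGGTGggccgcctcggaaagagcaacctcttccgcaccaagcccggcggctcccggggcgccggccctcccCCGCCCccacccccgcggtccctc
The AQP1 window held 3 copies of the GC box GGGCGG, between 44 and 199 bases before the start, and no other motif searched. The GFRA3 window held 1 GC box and 1 copy of CAGGTG, the E-box type bound by ZEB and SNAI factors, 96 bases before the start. Among the same 250-base windows of 35116 promoters, 42.6% held GGGCGG and 17.5% held CAGGTG. The motifs without a match in either window were TGANTCA (AP-1, in 6.57% of promoters), CACGTG (the MITF-type E-box, in 6.34%), TTCAGCACC (the left part of the REST site RE1, in 0.288%), AGGTCA (the core of nuclear receptor sites, in 12.1%) and TGACGTCA (the CRE, in 1.65%). The RXRG window is not printed, since its RefSeq start (165445126) lies inside the GENCODE span of the gene. It held 1 AGGTCA, 231 bases before that start, 1 GC box at 220 bases, and no other motif searched. These are letter matches and say nothing of binding in these cells. GC content was 65.2% for AQP1 and 59.2% for GFRA3, beside a median of 58.0% over all windows.

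The libraries held 9516687 to 11797788 estimated counts in all, and levels are given as estimated counts or as CPM (counts per 1000000 of a library's total). A count of 0 allows up to 3 counts, or 0.277 to 0.293 CPM here, for counting error only. The melanocyte markers MITF, SOX10, PMEL, MLANA, TYR, TYRP1, DCT and S100B all had over 3 counts in both 451Lu-R groups, with a summed level of 13654 and 13727 CPM with DMSO and 11702 and 11748 CPM with corin. PMEL made up most of that sum, and in 451Lu-R 7 of the 8 fell and 1 rose. MITF fell there from 793 ± 15.7 to 287 ± 0.755 CPM (log2, -1.37, SE, 0.0242) and SOX10 from 758 ± 20.9 to 234 ± 2.93 CPM (log2, -1.60, SE, 0.0260), whereas DCT rose from 1668 ± 2.46 to 2675 ± 23.6 CPM (log2, 0.78, SE, 0.0164; SD, n = 2). The part of these markers in the results for NGFR and RXRG was not tested. In 1205Lu-R the same 8 markers summed to 8.56 and 8.29 CPM with DMSO and 26.5 and 23.2 CPM with corin, and SOX10, the neural crest and melanocyte lineage factor, and TYR had 0 counts in all 4 libraries. MITF stood at 89 and 67 counts in 1205Lu-R with DMSO against 157 and 167 with corin. Of 6 markers of epithelial, blood and endothelial cells, 2 passed 3 counts in both libraries of a group. These were KRT14, with 3 and 4 counts in 451Lu-R with DMSO against 56 and 44 with corin, and PECAM1, with 67 to 104 counts in the 1205Lu-R libraries and 0 in 451Lu-R. In bulk RNA, more cells expressing a gene and more RNA per cell cannot be told apart.

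NGFR (chr17:49495293-49515008, GENCODE 44 on GRCh38, plus strand) was nearly silent in 451Lu-R with DMSO and plainly expressed in both lines with corin. In 451Lu-R it had 14 and 8 counts with DMSO against 4185 and 3482 with corin. In 1205Lu-R it had 62 and 65 counts with DMSO against 1960 and 2212 with corin. No library of a group overlapped with another group, and the order ran from 451Lu-R DMSO through 1205Lu-R DMSO and 1205Lu-R corin to 451Lu-R corin. Mean levels in that order were 1.06 ± 0.323, 5.86 ± 0.366, 202 ± 4.87 and 351 ± 4.66 CPM (SD, n = 2). The line with the lower NGFR level before treatment thus had the higher level after it.

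With corin, NGFR was 348-fold above DMSO in 451Lu-R (log2, 8.44, SE, 0.0818) and 32.8-fold above DMSO in 1205Lu-R (log2, 5.03, SE, 0.0696). The difference between these responses, 1205Lu-R minus 451Lu-R, was -3.45 on the log2 scale (SE, 0.259). With DMSO alone, NGFR was 5.84-fold higher in 1205Lu-R than in 451Lu-R (log2, 2.55, SE, 0.285). The size in 451Lu-R leans on the 14 and 8 counts with DMSO, and without either DMSO library it ran from 8.18 to 8.80. Per kilobase of exon, the NGFR level was 84.9 CPM in 451Lu-R and 48.9 CPM in 1205Lu-R with corin. The antisense gene NGFR-AS1, which lies opposite NGFR, had 1 count in the 8 libraries together.

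RXRG (chr1:165400922-165445355, minus strand) had the opposite pattern and was in effect a 451Lu-R gene. It had 540 and 513 counts in 451Lu-R with DMSO against 72 and 75 with corin. In 1205Lu-R it had 0 counts in both DMSO libraries, and 1 and 0 with corin. The 451Lu-R groups did not overlap with each other or with 1205Lu-R, and the 1205Lu-R groups cannot be ordered at 0 and 1 counts. In 451Lu-R the mean was 51.3 ± 2.51 CPM with DMSO and 6.80 ± 0.987 CPM with corin (SD, n = 2), a log2 fold change of -2.82 (SE, 0.104). With DMSO, RXRG was at least 185-fold lower in 1205Lu-R than in 451Lu-R when the 0 counts were set to 3 per library. Before treatment RXRG thus stood where NGFR was lowest, and per kilobase its level in 451Lu-R was 19.1 CPM against 0.255 CPM for NGFR.

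**Figure D1:**
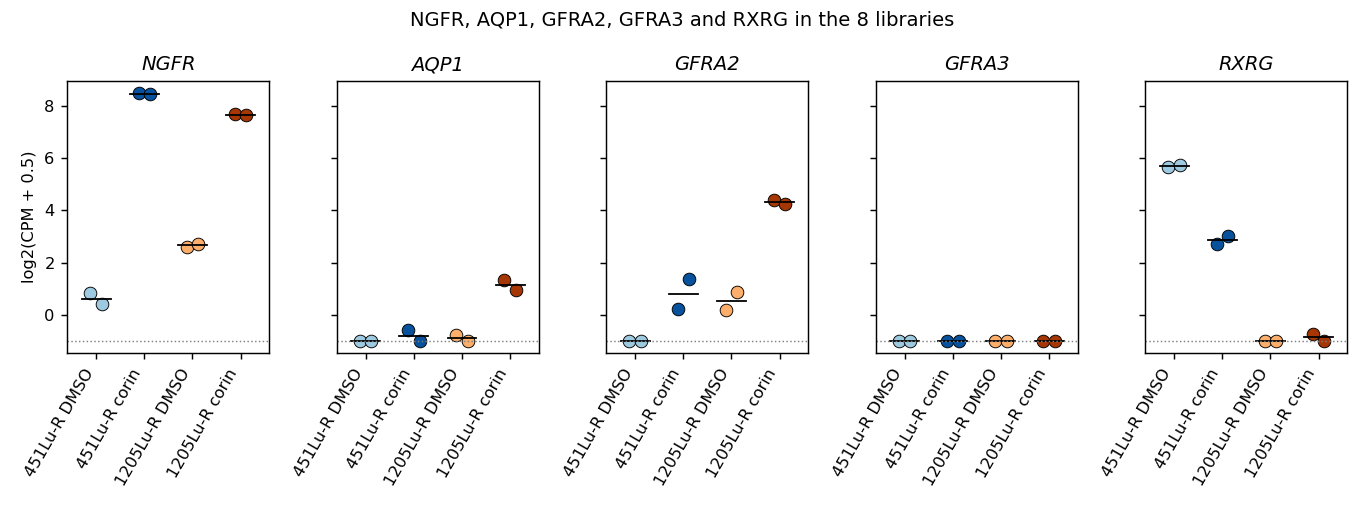
Level of NGFR, AQP1, GFRA2, GFRA3 and RXRG in each of the 8 libraries, as log2(CPM + 0.5), with 1 point per library, a black line at the mean of the 2 libraries of a group and a dotted line at a count of 0. The corin libraries of both lines stand far above their DMSO libraries for NGFR (351 against 1.06 CPM in 451Lu-R, 202 against 5.86 CPM in 1205Lu-R), GFRA2 and AQP1 stand apart in 1205Lu-R with corin, GFRA3 stays at 0, and RXRG is found in 451Lu-R, with less under corin.

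GFRA2 (chr8:21690398-21812357, minus strand) reached more than low counts in 1 group. It had 0 counts in both DMSO libraries of 451Lu-R against 8 and 21 with corin. In 1205Lu-R it had 7 and 14 counts with DMSO against 193 and 203 with corin. The 451Lu-R corin and 1205Lu-R DMSO groups overlapped and are not ordered, while corin-treated 1205Lu-R lay above all others. In 1205Lu-R the mean was 0.975 ± 0.485 CPM with DMSO and 19.3 ± 1.42 CPM with corin (SD, n = 2), an 18.6-fold difference (log2, 4.22, SE, 0.217), which ran from 3.77 to 4.81 with each library left out. In 451Lu-R the level with corin was at least 4.74-fold higher than with DMSO, again with 3 counts per library in place of 0.

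AQP1 (chr7:30911853-30925517, plus strand) had 0 counts in both 451Lu-R DMSO libraries, 2 and 0 with corin, and 1 and 0 in 1205Lu-R with DMSO. With corin in 1205Lu-R it had 19 and 16 counts, the only libraries above 3. The ratio of corin to DMSO in 1205Lu-R was 36.8, with an exact 95% counting interval from 6.18 to 1494. The fitted log2 fold change of 4.82 ran from 3.98 without 1205Lu-R DMSO replicate 2 to 7.13 without 1205Lu-R DMSO replicate 1, so that the single DMSO count set its size. A read-through gene that overlaps AQP1 on the same strand had 2.23 estimated counts, all in 1 corin library of 451Lu-R. GFRA3 (chr5:138252380-138274621, minus strand) had 0 counts in each of the 8 libraries, which at this depth does not exclude levels below about 0.3 CPM.

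Not all members could enter the fits. In 451Lu-R NGFR and RXRG passed the filter on low counts, in 1205Lu-R NGFR, AQP1 and GFRA2, with DMSO between the lines NGFR and RXRG, and over the 8 libraries all but GFRA3. Genes were called at an FDR under 0.05 in edgeR's quasi-likelihood test. In 451Lu-R, NGFR was called higher and RXRG lower, where 41.3% of 14530 genes were called higher and 38.6% lower. In 1205Lu-R the 3 members that passed were called higher, where 40.4% of 14563 genes were called higher and 37.8% lower. Between the lines with DMSO, NGFR was called higher and RXRG lower in 1205Lu-R, where 41.0% and 41.5% of 14104 genes were. In the difference between the responses, NGFR was called lower, where 22.6% of 16062 genes were called higher and 27.1% lower. Since these values chose the members, nothing is read from the counts. The other 3 members in that fit had groups at 0 to 3 counts, so that their fitted difference depends on the fit's prior count and is not given.

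The rest of the pathways around these genes was taken from lists of 86 ligands, receptors, adaptors and related genes, of which 80 were in the table. Of 56 that passed the filter in 451Lu-R, corin raised 39 (69.6%) and lowered 9 (16.1%), where 41.3% and 38.6% of all genes were called. The median log2 fold change was 0.98 beside 0.03 over all genes. Of 59 in 1205Lu-R corin raised 35 (59.3%) and lowered 18 (30.5%), where 40.4% and 37.8% of all genes were called. The median there was 0.62 beside 0.03. A gene near 0 with DMSO could pass the filter only through its corin libraries, so that for it only a rise could be found. With a change of 4-fold or more and an FDR under 0.001 asked as well, 16 rose in 451Lu-R and none fell, where 12.4% of all genes rose and 2.72% fell by that rule. In 1205Lu-R 15 rose and none fell, where 11.3% rose and 1.43% fell. The lists were drawn up with earlier results of these data known, so their counts are not independent evidence of a direction.

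Among the neurotrophins, the ligands of NGFR, BDNF was found in both lines and NTF3 in 1205Lu-R and not in 451Lu-R. BDNF, which promotes survival and outgrowth of neurons through NTRK2, had 9 and 10 counts in 451Lu-R with DMSO against 89.1 and 92.0 with corin. In 1205Lu-R it had 91.0 and 119 counts with DMSO against 221 and 262 with corin. BDNF rose in both lines, by 3.25 (SE, 0.275) in 451Lu-R and 1.20 (SE, 0.127) in 1205Lu-R on the log2 scale, with edgeR adjusted p of 1.45e-09 and 1.75e-08. Its rise was smaller in 1205Lu-R than in 451Lu-R, by a tested difference of -2.09 (SE, 0.330, edgeR interaction, adjusted p = 1.72e-05). NTF3 rose in 1205Lu-R from 4 and 6 to 15 and 17 counts (log2, 1.65, SE, 0.480, edgeR adjusted p = 0.00366), a call lost with DESeq2 and without 1205Lu-R DMSO replicate 1, and had 0 counts in 451Lu-R. NTF4 did not pass the filter and had at most 9 counts in a library.

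NTRK2 and NTRK3, receptor kinases that carry the survival signal of neurotrophins, were called higher with corin in both lines. NTRK2, the BDNF receptor, went from 26 and 27 to 67 and 59 counts in 451Lu-R, and from 9 and 12 to 81 and 77 in 1205Lu-R. NTRK3, the receptor of NTF3, went from 1 and 2 to 95.3 and 77.3 counts in 451Lu-R, a ratio of 54.1 with an exact 95% counting interval from 18.2 to 265, and from 53.0 and 53.6 to 248 and 348 in 1205Lu-R. On the log2 scale the fitted rises in 1205Lu-R were 2.90 (SE, 0.279) for NTRK2 and 2.47 (SE, 0.137) for NTRK3. The edgeR adjusted p ran from 3.08e-13 (NTRK3 in 1205Lu-R) to 6.18e-05 (NTRK2 in 451Lu-R), and every corin library lay above every DMSO library of its line. The response of NTRK2 was larger in 1205Lu-R (difference 1.60, SE, 0.392, edgeR adjusted p = 0.00177).

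Of the 10 receptors and partners listed, 9 passed the filter in 451Lu-R, where 7 rose and 1 fell, beside 41.3% and 38.6% of all genes. In 1205Lu-R 8 passed, where 6 rose and 1 fell, beside 40.4% and 37.8% of all genes. Their median log2 fold changes were 1.25 and 2.0, beside 0.03 over all genes in each line. A gene near 0 with DMSO, such as NTRK3 and SORCS2 in 451Lu-R, passed only through its corin libraries. For such a gene only a rise could be found. SORT1, or sortilin, which joins NGFR to bind the precursors of neurotrophins, was abundant in 451Lu-R at 301 ± 3.35 CPM with DMSO and 331 ± 0.222 CPM with corin (SD, n = 2). In 1205Lu-R it stood at 51.0 ± 2.95 and 155 ± 1.59 CPM. It rose in both lines, by 0.24 (SE, 0.0261) and 1.53 (SE, 0.0465) on the log2 scale, and by more in 1205Lu-R (difference 1.26, SE, 0.0578, edgeR adjusted p = 7.74e-14). Its relatives SORCS1 and SORCS2 were split between the lines. SORCS1 rose in 451Lu-R from 169 and 159 to 440 and 335 counts (log2, 1.25, SE, 0.0915, edgeR adjusted p = 1.47e-10). It had at most 2 counts in a 1205Lu-R library. SORCS2 had 269 to 313 counts in every 1205Lu-R library, and in 451Lu-R went from 1 and 0 to 62 and 33, a ratio of 89.6 with an exact 95% counting interval from 15.7 to 3577. SORCS3 had at most 4 counts in a library.

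LINGO1 and RTN4R belong to the complex in which NGFR relays signals that stop axon growth, and TNFRSF19 was listed with them. LINGO1 moved in opposite directions. It fell in 451Lu-R from 245 and 235 to 99 and 93.0 counts (log2, -1.31, SE, 0.116) and rose in 1205Lu-R from 7 and 11 to 65 and 43 (log2, 2.58, SE, 0.366). The difference between the lines was 3.84 (SE, 0.366, edgeR adjusted p = 1.33e-08). RTN4R, the Nogo receptor, rose in 1205Lu-R by 1.41 (SE, 0.121) on the log2 scale, whereas in 451Lu-R the value was 0.19 (SE, 0.0882, edgeR adjusted p = 0.0591). That p fell below 0.05 with RLE size factors, the replicate block, a filter at 1 CPM, all 8 libraries in one fit, or without 451Lu-R DMSO replicate 1 (adjusted p = 0.00483) or 451Lu-R corin replicate 2 (adjusted p = 0.00683). TNFRSF19, or TROY, rose in 451Lu-R from 733 and 600 to 1471 and 1185 counts (log2, 1.01, SE, 0.0498). Its fall in 1205Lu-R, of -0.23 (SE, 0.0739, edgeR adjusted p = 0.00834), was lost with DESeq2 and with scaling to library size alone.

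**Figure D2:**
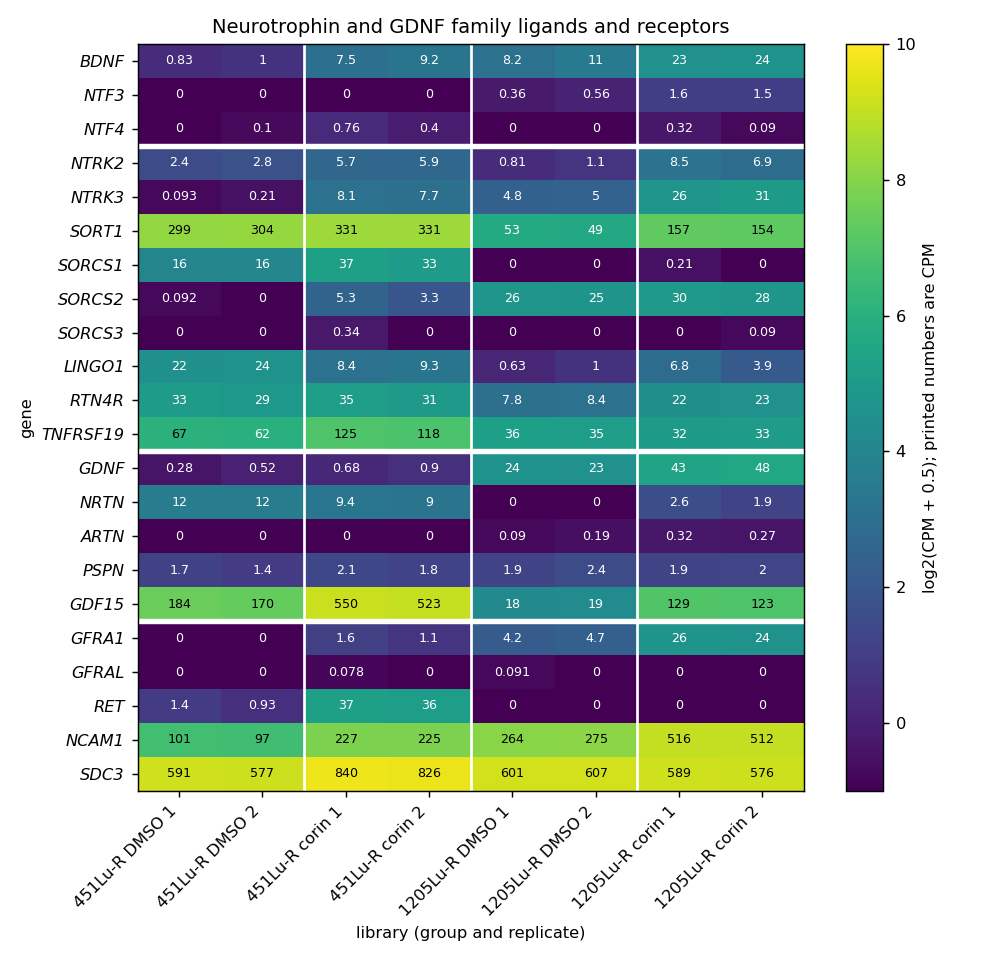
Levels of neurotrophin ligands, receptors and partners of NGFR, GDNF family ligands and their receptors in each library, coloured by log2(CPM + 0.5) with the CPM printed in each cell. NTRK2 and NTRK3 are higher in every corin library of both lines, GFRA1 is highest in 1205Lu-R with corin, and RET is seen in 451Lu-R alone, at 36.5 CPM with corin.

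The 9 adaptors and processing proteases of NGFR were measured in both lines with DMSO, and none changed 4-fold with corin. With corin, 6 rose against 3 that fell in 451Lu-R, beside 41.3% and 38.6% of all genes. In 1205Lu-R 4 moved in each direction, beside 40.4% and 37.8% of all genes. The medians were 0.31 and 0.08 on the log2 scale. IRAK1, a kinase of the Toll-like receptor pathway that also binds the NGFR complex, fell in both lines, from 252 ± 5.65 to 92.3 ± 0.0466 CPM in 451Lu-R and from 498 ± 21.4 to 275 ± 1.71 CPM in 1205Lu-R (SD, n = 2). TRAF6, the ubiquitin ligase recruited to the receptor, rose by 0.84 (SE, 0.123) and 0.90 (SE, 0.0822), and the kinase RIPK2 rose by 0.93 (SE, 0.0838) and 0.75 (SE, 0.0686). ADAM17, which sheds the outer part of NGFR, rose by 0.54 (SE, 0.0619) in 451Lu-R and 1.13 (SE, 0.0540) in 1205Lu-R. MAGED1 rose by 0.31 (SE, 0.0297) in 451Lu-R and fell by 0.53 (log2 -0.53, SE, 0.0475) in 1205Lu-R, and BEX3 fell by 0.14 (log2 -0.14, SE, 0.0314) in 451Lu-R.

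Ligands and receptors of the GDNF family, to which GFRA2 and GFRA3 belong as co-receptors, were distributed unequally between the lines. GDNF, the ligand of GFRA1, had 3 to 9 counts in the 451Lu-R libraries. In 1205Lu-R it had 267 and 245 counts with DMSO against 407 and 530 with corin, a rise of 0.87 on the log2 scale (SE, 0.0800, edgeR adjusted p = 1.88e-09). Neurturin, NRTN, the ligand preferred by GFRA2, had 134 and 113 counts in 451Lu-R with DMSO against 111 and 90 with corin, a value of -0.28 (SE, 0.133, edgeR adjusted p = 0.0598; 0.0142 when scaled to library size alone). In 1205Lu-R NRTN had 0 counts in both DMSO libraries against 25 and 21 with corin, at least 8.16-fold higher. Artemin, ARTN, the ligand of GFRA3, had at most 3 counts in a library, and PSPN at most 25.2. GDF15, a stress cytokine that signals through GFRAL, rose in both lines, from 177 ± 10.2 to 537 ± 19.1 CPM in 451Lu-R and from 18.7 ± 0.609 to 126 ± 3.92 CPM in 1205Lu-R (SD, n = 2). Its receptor GFRAL had at most 1 count in a library.

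RET, the kinase shared by the GFRA co-receptors, rose in 451Lu-R from 15 and 9 to 439 and 358 counts, a 33.2-fold change (log2, 5.05, SE, 0.160, edgeR adjusted p = 2.27e-16). In 1205Lu-R RET had 0 counts in all 4 libraries, so that the line in which GFRA2 was highest had no detectable RET at this depth. GFRA1 rose in both lines. In 451Lu-R it went from 0 counts in both libraries to 19 and 11, at least 4.63-fold higher, and in 1205Lu-R from 46 and 50 to 244 and 262, a 5.26-fold change (log2, 2.40, SE, 0.137, edgeR adjusted p = 5.27e-13). NCAM1, an adhesion molecule that can bind GDNF without RET, rose in both, from 98.8 ± 2.45 to 226 ± 1.08 CPM and from 269 ± 8.10 to 514 ± 2.56 CPM (SD, n = 2). SDC3, a syndecan that binds GDNF family ligands, rose by 0.61 (SE, 0.0211) in 451Lu-R, and its fall in 1205Lu-R of -0.13 (SE, 0.0262) was lost when scaled to library size alone. Of the 6 receptors and co-receptors listed beside the members, 4 passed the filter in 451Lu-R and all 4 rose, beside 41.3% of all genes. GFRA1, at 0 counts there with DMSO, passed only through its corin libraries, so that for it only a rise could be found. In 1205Lu-R 3 passed, with 2 higher and 1 lower, beside 40.4% and 37.8% of all genes.

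AQP1 was not the aquaporin with the most counts. Of 13 others listed, 2 passed the filter in each line and all of those rose. Over all genes, 41.3% were called higher in 451Lu-R and 40.4% in 1205Lu-R. AQP4 in 451Lu-R and AQP3 in 1205Lu-R passed only through their corin libraries, so that for them only a rise could be found. AQP3, which also passes glycerol, went in 1205Lu-R from 5 and 1 counts to 194 and 204, a 63.7-fold change (log2, 5.99, SE, 0.280, edgeR adjusted p = 1.39e-14), and had at most 3 counts in 451Lu-R. Without 1205Lu-R DMSO replicate 1 its log2 fold change was 7.43, and without replicate 2 it was 5.29. AQP11, an aquaporin of the endoplasmic reticulum, rose from 48.0 and 48 to 187 and 155 counts in 451Lu-R, and from 21 and 25 to 46 and 53 in 1205Lu-R. AQP4, the astrocyte aquaporin, went in 451Lu-R from 0 and 1 to 26 and 11 counts, a ratio of 34.9 with an exact 95% counting interval from 5.89 to 1416.

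Around RXRG, the other retinoid X receptors also fell, but by less, and in both lines. RXRA went from 45.3 ± 2.14 to 28.6 ± 1.08 CPM in 451Lu-R and from 68.1 ± 1.69 to 53.4 ± 2.80 CPM in 1205Lu-R (SD, n = 2). RXRB went from 29.6 ± 0.574 to 16.4 ± 1.53 CPM and from 27.4 ± 0.730 to 19.6 ± 0.942 CPM. The edgeR adjusted p for these 4 falls ran from 4.21e-07 to 1.15e-05, and no corin library reached the level of a DMSO library of its line. RXRA and RXRB were named after their values were seen, so these values are a description. The share of all genes whose libraries separate in this way was not computed. In 1205Lu-R the change of RXRG itself is not known, with 1 count over 4 libraries. Of the 13 receptors of this list, 6 (46.2%) rose and 5 (38.5%) fell in 451Lu-R, near the 41.3% and 38.6% of all genes. In 1205Lu-R 3 (23.1%) were higher and 7 (53.8%) lower, beside 40.4% and 37.8% of all genes. The medians were -0.01 and -0.30 on the log2 scale.

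VDR, the vitamin D receptor and a partner of RXR, had the largest change in 451Lu-R of a partner not at 0, from 4 and 3 to 229 and 206 counts (log2, 5.92, SE, 0.243, edgeR adjusted p = 1.44e-14). In 1205Lu-R it was at 251 and 257 counts with DMSO and rose by 0.46 (SE, 0.0827), and its level in 451Lu-R with corin was 19.4 and 20.6 CPM beside 23.4 ± 1.07 CPM in 1205Lu-R with DMSO (SD, n = 2). RARB, the retinoic acid receptor that is itself a target of retinoic acid, had 0 counts in 451Lu-R with DMSO against 17.4 and 21 with corin, at least 6.05-fold higher. In 1205Lu-R RARB fell from 338 and 310 to 141 and 194 counts (log2, -0.95, SE, 0.0979). THRB rose in 451Lu-R by 1.59 (SE, 0.209) and fell in 1205Lu-R by 0.30 (log2 -0.30, SE, 0.0916), a fall not called by DESeq2. RARG fell in both lines, from 14.4 ± 1.23 to 4.69 ± 0.556 CPM and from 16.1 ± 1.32 to 7.70 ± 0.186 CPM (SD, n = 2). PPARG had a log2 fold change of -1.32 (SE, 0.136) in 1205Lu-R, and NR1H2 fell in both lines, by -0.84 (SE, 0.0763) and -0.98 (SE, 0.0690).

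Of 11 genes that take up, make, bind or clear retinoic acid, 4 passed the filter in 451Lu-R. There 3 rose and 0 fell, beside 41.3% and 38.6% of all genes. In 1205Lu-R 5 passed, with 2 higher and 3 lower, beside 40.4% and 37.8% of all genes. These genes are too few to read a contrast between the lines from their counts. ALDH1A3, which makes retinoic acid, rose in 451Lu-R from 25 and 26 to 431 and 378 counts (log2, 4.0, SE, 0.133, edgeR adjusted p = 4.96e-16). In 1205Lu-R it was at 97.4 ± 5.66 CPM with DMSO and fell to 83.3 ± 3.93 CPM (SD, n = 2). CYP26B1, which breaks retinoic acid down, rose in both lines, from 43 and 26 to 416 and 335 counts and from 236 and 232 to 609 and 699. CRABP2, which carries retinoic acid to the nucleus, rose in 1205Lu-R from 17 and 9 to 323 and 344 counts, a 25.4-fold change (log2, 4.67, SE, 0.180, edgeR adjusted p = 4.42e-16), and had at most 5 counts in 451Lu-R. STRA6, the retinol importer, and DHRS3, which returns retinal to retinol, had at most 10 counts in a 451Lu-R library, and fell in 1205Lu-R, STRA6 from 121 ± 4.36 to 98.4 ± 4.39 CPM and DHRS3 from 22.1 ± 2.10 to 9.35 ± 0.892 CPM. ALDH1A1 had 78 to 105 counts in the 451Lu-R libraries and at most 7 in 1205Lu-R. In 451Lu-R ALDH1A2 rose from 8 and 5 to 16 and 17.0 counts (edgeR adjusted p = 0.0102), a call lost with DESeq2 and without 451Lu-R DMSO replicate 2 or corin replicate 2.

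**Figure D3:**
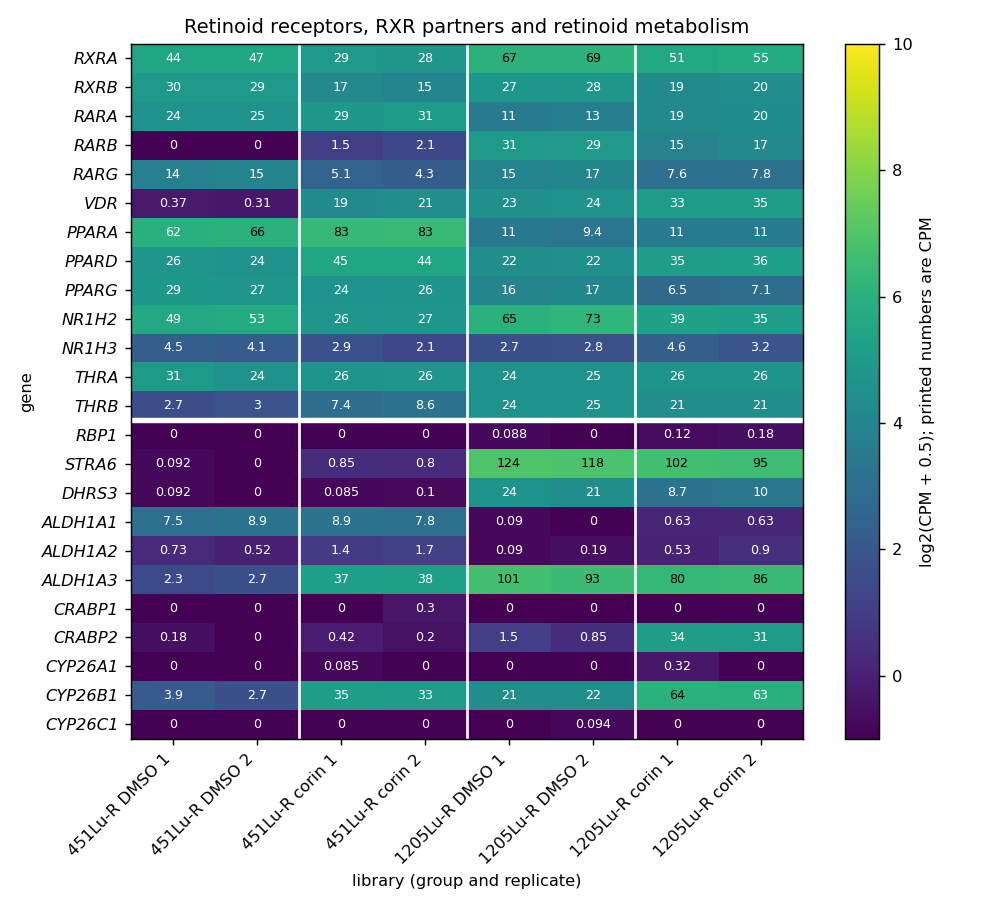
Levels of the retinoid receptors, the partners of RXR and the genes of retinoid uptake, synthesis, binding and clearance in each library, coloured by log2(CPM + 0.5) with the CPM printed in each cell. VDR, RARB and ALDH1A3 are higher in 451Lu-R with corin (VDR from a mean of 0.339 CPM to 19.4 and 20.6 CPM), CRABP2 is higher in 1205Lu-R with corin (from 1.19 to 32.4 CPM), and STRA6 and DHRS3 are seen mainly in 1205Lu-R.

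Other genes of the neural crest stem-like melanoma state did not all move with NGFR. Of the 15 listed, 11 passed the filter in 451Lu-R, where 9 rose and none fell, beside 41.3% and 38.6% of all genes. In 1205Lu-R 12 passed, with 10 higher and 2 lower, beside 40.4% and 37.8% of all genes. SOX2 in 451Lu-R, and SLITRK6, FOXD3 and GAP43 in 1205Lu-R, passed only through their corin libraries. For them only a rise could be found, so the counts are not evidence of a direction. The medians were 1.98 and 1.06 on the log2 scale, beside 0.03 over all genes in each line. ANXA1, a phospholipid-binding protein, rose in both lines, from 56 and 50 to 1360 and 1083 counts in 451Lu-R, 23.2-fold, and from 44 and 46.0 to 611 and 760 in 1205Lu-R, 15.2-fold. SYT11, a vesicle protein of the synaptotagmin family, rose 5.90-fold and 7.16-fold. SOX2, a stem cell transcription factor, went in 451Lu-R from 2 and 0 to 53 and 54 counts, a ratio of 50.5 with an exact 95% counting interval from 13.6 to 422, and in 1205Lu-R from 81 and 82 to 156 and 181. CADM1, an adhesion molecule, rose 8.90-fold in 451Lu-R, from 25.0 ± 0.0642 to 208 ± 0.396 CPM, and 1.22-fold in 1205Lu-R, from 182 ± 5.94 to 235 ± 0.299 CPM (SD, n = 2). GAP43, a growth cone protein, rose 9.82-fold in 1205Lu-R, from 11 and 6 to 84 and 85 counts. In 451Lu-R it had 0 counts in both DMSO libraries against 7 and 6 with corin. SLITRK6, a neuronal membrane protein, rose 4.64-fold in 451Lu-R, from 20 and 18 to 90 and 85. It was also called higher in 1205Lu-R, with 0 counts in both DMSO libraries against 12 and 13 with corin. The edgeR adjusted p for the rises of ANXA1, SYT11 and CADM1 was at most 9.81e-08.

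NES, or nestin, the intermediate filament of neural progenitors, moved against NGFR in 1205Lu-R. It fell there from 1263 ± 33.6 to 447 ± 1.19 CPM (log2, -1.57, SE, 0.0274) and rose in 451Lu-R from 35.8 ± 0.778 to 131 ± 11.2 CPM (log2, 1.98, SE, 0.0637; SD, n = 2). The difference between the lines was -3.59 (SE, 0.0827, edgeR adjusted p = 7.03e-19). FOXD3, the neural crest factor, had 0 counts in 451Lu-R, and 7 and 2 counts in 1205Lu-R with DMSO against 18 and 20 with corin. TFAP2B had at most 4 counts in a library.

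**Figure D4:**
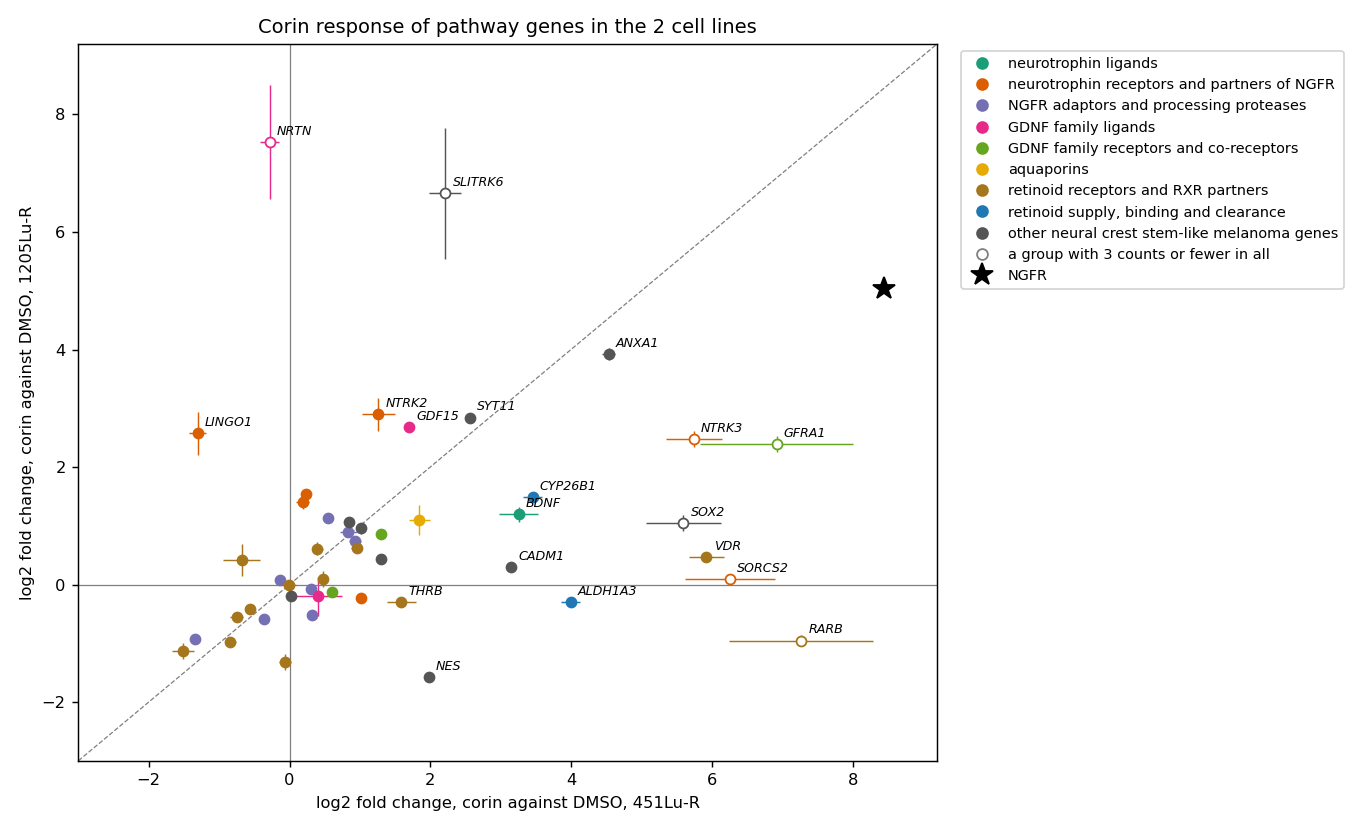
Log2 fold change of corin against DMSO in 451Lu-R (x axis) and 1205Lu-R (y axis) for pathway genes tested in both lines, with bars of 1 SE, coloured by list, and a star for NGFR; open points have a group with 3 counts or fewer in all, so that their size depends on the fit. NGFR, at 8.44 and 5.03, lies in the upper right, ANXA1 and SYT11 lie near the diagonal of equal change, and NES, RARB, ALDH1A3 and LINGO1 lie where the lines moved in opposite directions.

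With DMSO, 25 pathway genes of 56 tested (44.6%) were higher in 1205Lu-R and 25 (44.6%) lower. These shares were near those of all genes, 41.0% and 41.5%. Asking 4-fold and an FDR under 0.001, 15 (26.8%) were higher and 12 (21.4%) lower, where 10.1% and 10.6% of all genes were. The genes higher in 1205Lu-R included BDNF (log2, 3.48, SE, 0.272), GDNF (5.98, SE, 0.238), VDR (6.16, SE, 0.241), ALDH1A3 (5.40, SE, 0.110) and NES (5.25, SE, 0.0375). Those lower included LINGO1 (-4.69, SE, 0.211), GDF15 (-3.14, SE, 0.0639) and SORT1 (-2.46, SE, 0.0429), while NRTN was at least 43.3-fold lower and RET at least 4.17-fold lower. This comparison shares its DMSO libraries with the corin comparisons, so that their values for a gene are not independent.

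The corin response differed between the lines for 41 of the 65 pathway genes tested, higher in 1205Lu-R for 14 and lower for 27, where 22.6% and 27.1% of all genes were. At 4-fold and an FDR under 0.001, it was higher for 2 and lower for 11, where 2.43% and 3.13% of all genes were. The split moved with the scaling. With library size alone, which shifts the median of all genes by 0.21 on the log2 scale, 18 pathway genes were higher and 21 lower, and the share of higher calls among all called genes went from 45.4% to 64.0%. Without 1205Lu-R DMSO replicate 2, 8 were higher. The difference of NGFR was -3.24 with library size alone.

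The 5 genes whose profile over the 8 libraries was nearest to NGFR were CD24, WSCD1, REEP1, PKIA and HPCAL4, by the root mean square difference of log2(CPM + 0.5) after each gene was centred on its mean, among 16061 genes. That difference was 0.348 for CD24, a surface glycoprotein, and 0.415 for WSCD1, and 0.714, 0.731 and 0.742 for REEP1, PKIA and HPCAL4. The correlation with NGFR over the 8 libraries, which fall into corin and DMSO groups, was 0.976 to 0.998 for CD24, WSCD1, REEP1 and PKIA, and 0.975 for HPCAL4. Since the genes were chosen by their closeness to NGFR in these same libraries, high correlations and a similar pattern follow from the choice. CD24 ran from 0.199 and 0.280 CPM in 451Lu-R with DMSO to 170 and 174 CPM with corin, and from 4.08 and 5.14 to 149 and 152 CPM in 1205Lu-R. Like NGFR, CD24, WSCD1 and REEP1 were higher in 1205Lu-R than in 451Lu-R with DMSO. None of the other members was among these genes.

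**Figure D5:**
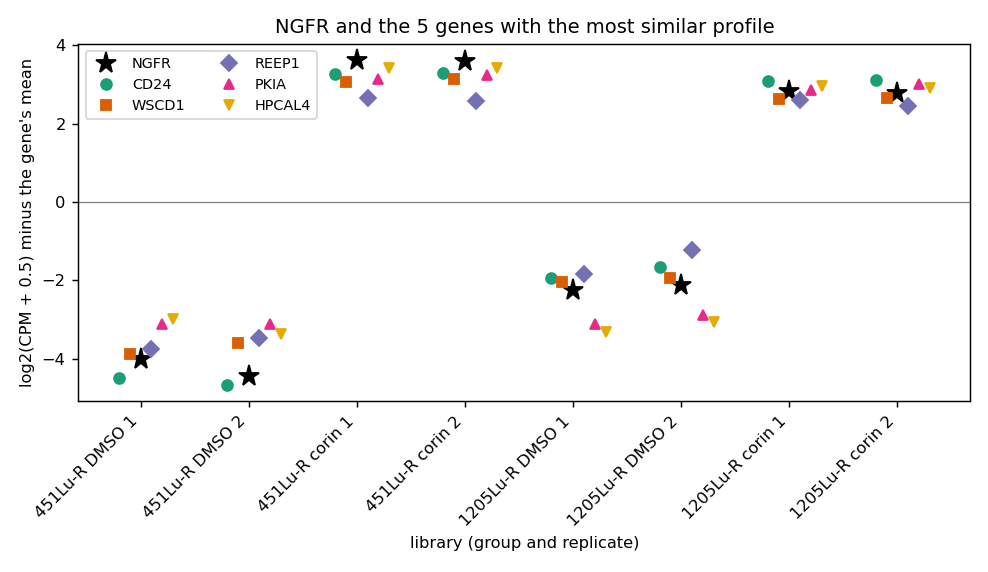
Profiles of NGFR (stars) and its 5 nearest genes over the 8 libraries, as log2(CPM + 0.5) minus the mean of each gene, with 1 point per gene and library, offset sideways to be seen. All 6 genes lie below their mean in the 4 DMSO libraries and above it in the 4 corin libraries, and CD24 (root mean square difference from NGFR, 0.348) follows NGFR most closely. The 5 genes were chosen by this likeness, so that the shared pattern follows from the choice.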

How the data were processed

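The authors trimmed polyA RNA-Seq reads with trimmomatic, quantified them with salmon on GENCODE v32 transcripts and summed to genes, and deposited estimated counts, not normalized, for 8 libraries (tool versions are not given in the sources used here). Further deposited tables hold the authors' own comparisons for PLX4032 and were not used. Whether the libraries keep strand is not given. Of 34228 genes, 34052 were matched to a GENCODE 44 symbol. Some listed genes count in the list totals but are not reported here by name. The members and lists were chosen with earlier results of these data known.

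Estimated counts were rounded to whole numbers and tested in edgeR 4.0.16 (R 4.3.3; filterByExpr, TMM, glmQLFit, glmQLFTest; 2-sided; Benjamini-Hochberg over all genes tested). Corin was compared with DMSO in each line, the lines with DMSO, and both responses by the interaction in all 8 libraries. A gene was called at an FDR under 0.05. The SE is the log2 fold change divided by the root of F. A group at 0 counts gives a bound against 3 counts per library; a group with 1 to 3 counts in all gives a ratio with an exact 95% interval for counting error. Named genes were the members, all neurotrophin and GDNF family ligands and receptors, and, per other list and comparison, at most the 3 called genes with the largest change and a mean of at least 1 CPM; others named with values (FOXD3, TFAP2B, AQP4, RXRA, RXRB) were taken after their values were seen. Counts of replicates differed by a chi-square of 1.34 to 1.41 per degree of freedom. Same-numbered libraries did not deviate together (r from -0.023 to 0.043). The fits were tested on simulated counts. Alternatives were DESeq2 1.42.0, RLE size factors, library size alone, other filters, all 8 libraries in one fit, a replicate block, a 4-fold rule and leaving out each library.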

Additional observations from a re-analysis of the deposited data

Results flagged for a closer look

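By the interaction test in edgeR at an FDR under 0.05 over all genes tested, the corin response of 32 named pathway genes differed between the cell lines. Of all 16062 genes tested, the response was higher in 1205Lu-R for 22.6% and lower for 27.1%. Some of the 32 were named because they were called in this same test, so their number is not evidence of a difference. Each value is the log2 fold change in 1205Lu-R less that in 451Lu-R.

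In 8 of these genes the called directions were opposite. The share of all genes with opposite called directions was not computed. LINGO1 (3.84) went down in 451Lu-R but up in 1205Lu-R, whereas TNFRSF19 (-1.27), MAGED1 (-0.88), SDC3 (-0.77), RARB (-8.24), THRB (-1.93), ALDH1A3 (-4.33) and NES (-3.59) went up in 451Lu-R but down in 1205Lu-R. The falls of TNFRSF19, SDC3 and THRB in 1205Lu-R were each lost under at least 1 alternative.

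Responses were larger in 451Lu-R, or were called there alone, for BDNF (-2.09), NTRK3 (-3.31), SORCS2 (-6.21), GFRA1 (-4.55), NCAM1 (-0.47), AQP11 (-0.78), VDR (-5.50), CYP26B1 (-2.01), ANXA1 (-0.65), CADM1 (-2.90) and SOX2 (-4.58). They were larger in 1205Lu-R, or were called there alone, for NTRK2 (1.60), SORT1 (1.26), RTN4R (1.18), ADAM17 (0.55), NRTN (7.79), GDF15 (0.94), SLITRK6 (4.42) and SYT11 (0.24). Of genes that fell, PPARG (-1.29) was called in 1205Lu-R, BEX3 (0.19) was called in 451Lu-R, and IRAK1 (0.38) fell less in 1205Lu-R. STRA6 (-4.29) and ALDH1A1 (3.24) were each tested in 1 line only by the filter on low counts.

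RARB, NTRK3, SORCS2, NRTN, GFRA1, STRA6, ALDH1A1, SLITRK6 and SOX2 had a group at 3 counts or fewer per library, so that the size of their difference depends on the fit's prior count. The differences of AQP11, BEX3 and SYT11 were lost with DESeq2 and without some single libraries. No cause of these differences was tested.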

How the results depend on the processing

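Over counts of called pathway genes, 140 values under an alternative stayed within 1.5 times the reported count and 13 did not. With 4-fold and an FDR under 0.001, 16 genes were called in 451Lu-R (16 higher, 0 lower), 15 in 1205Lu-R (15 higher, 0 lower), 27 between the lines with DMSO (15 higher, 12 lower) and 13 for the difference in response (2 higher, 11 lower). Over the fits that each lack 1 library, the pathway genes whose response was higher in 1205Lu-R ran from 8 to 14. With the replicate number as a block, 49, 53, 49 and 40 pathway genes were called in the 4 comparisons, against 48, 53, 50 and 41 without it. The labels give the replicate numbers but nothing that pairs them. The block changed the call of RTN4R in 451Lu-R (adjusted p = 0.0353) and of SYT11 in the difference (adjusted p = 0.0562).

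Among the genes named by the rule, 7 values changed sign, and each of the 7 was in the difference in response and missed the threshold. These were SORCS1 (-1.25, without 1205Lu-R corin replicate 1, against up to 2.92 without another), GDNF (0.14) and CRABP2 (-0.21) without 451Lu-R DMSO replicate 1, with ranges over the single libraries left out from -0.73 to 0.14 and from -0.21 to 3.76, NR1H2 (0.033, library size alone) and TRAF6 (-0.13, -0.0059 and -0.023, without 451Lu-R DMSO replicate 1, 451Lu-R corin replicate 1 and 1205Lu-R DMSO replicate 2). The cause was not tested. A further 42 values fell short of the threshold and 15 newly passed it. Leaving out each library moved NGFR from 8.18 to 8.80 in 451Lu-R and from 4.96 to 5.08 in 1205Lu-R, RXRG from -2.96 to -2.67 in 451Lu-R, and GFRA2 from 3.77 to 4.81 in 1205Lu-R. Over all listed genes, no direction called as reported flipped with the scaling. Of values not called, L1CAM in 451Lu-R went from 0.023 to -0.076 with library size alone, where it passed the threshold (edgeR adjusted p = 0.00175). THRA (both corin comparisons and the difference), RXRB (between the lines with DMSO) and SLC22A17 (the difference) also changed sign with library size alone or RLE size factors, without passing the threshold.

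With 2 libraries per group, the spread of a gene is largely set by all genes. A group reduced to 1 library is assumed to vary like the others. AQP1 and GFRA2 rest on few counts, and GFRA3 was not detectable.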
